A study of Saccharomyces cerevisiae with 24 samples.

Results

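The introns of budding yeast, *Saccharomyces cerevisiae*, were counted as features of their own beside the exons of the same genes. All 343 features whose identifier marks an intron were taken, of 12289 features in the table, and each had a matching exon feature. Of the 343, 270 belonged to nuclear protein-coding genes, 60 to tRNA genes, 11 to mitochondrial genes and 2 to snR17a and snR17b, the genes of the U3 small nucleolar RNA (snoRNA). The 270 protein-coding introns had the same start and end as introns of the R64 reference annotation, and 89 of them lay in ribosomal protein genes.

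RNA came from 3 strains, each with 4 libraries at T0, before treatment, and 4 libraries at T60, after 60 min at 30 °C with 100 µM indole-3-acetic acid (auxin, IAA) and 1 µM beta-oestradiol. The strain wt carried no degron, and the strains dcp2-ideg and lsm1-ideg carried inducible degrons, tags that let the added compounds trigger destruction of the tagged protein, on Dcp2 and Lsm1. Every T60 culture, wt included, received both compounds, and all cultures grew in the rich medium YPD to an A600 of 0.6 to 0.8. Whether the replicates are separate cultures is not stated in the labels; the p-values therefore rest on differences among libraries that could be purely technical.

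An intron is removed from the pre-mRNA in the nucleus by the spliceosome, which recognises the donor site at the intron's start, the branch motif near its end and the acceptor site at its last bases. Unspliced pre-mRNA can be destroyed in the nucleus, or it can be exported and destroyed in the cytoplasm, where nonsense-mediated decay leads to removal of its cap by Dcp2, the catalytic subunit of the decapping enzyme, and to digestion by Xrn1. Lsm1 is a subunit of the cytoplasmic Lsm1-7 ring, which binds the 3' end of deadenylated mRNAs and activates decapping. Ribosomal protein genes hold a large share of the introns of this yeast and supply most of its spliced mRNA.

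The introns that the results turn on are shown first, read 5' to 3' on the strand of the gene from the RefSeq genome (R64), in DNA letters. Capitals mark the first 6 bases (donor), the branch motif and the last 3 bases (acceptor). RPL30 and REC107 are given whole because the first is a textbook case of a protein that blocks splicing of its own transcript and the second is a meiotic intron with an unusual donor. For the others the first 20 bases and the stretch from the branch motif to the end are given, because these hold the sites that the spliceosome reads. HAC1 stays in lower case because its intron is cut by the nuclease Ire1 and has no such sites.
RPL30 whole intron, chrVII:439094-439323, plus strand: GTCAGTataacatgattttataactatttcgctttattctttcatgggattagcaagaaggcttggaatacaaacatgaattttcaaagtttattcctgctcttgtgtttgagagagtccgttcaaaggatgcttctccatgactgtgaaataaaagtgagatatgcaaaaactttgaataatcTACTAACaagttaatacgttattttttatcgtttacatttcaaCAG
REC107 whole intron, chrX:469184-469263, minus strand: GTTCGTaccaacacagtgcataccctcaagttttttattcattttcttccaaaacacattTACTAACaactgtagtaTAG
RPL28 start, chrVII:311016-311526, plus strand: GTATGTagttccatttggaa
RPL28 end: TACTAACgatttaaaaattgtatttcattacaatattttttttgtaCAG
RPL22A start, chrXII:263206-263594, plus strand: GTATGAtactttaaaaggaa
RPL22A end: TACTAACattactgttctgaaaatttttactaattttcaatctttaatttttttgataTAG
RPL22B start, chrVI:64600-64920, minus strand: GTACGTtaattttcgttcct
RPL22B end: TACTAACataaaactgtaaCAG
RPS9B start, chrII:604515-604927, plus strand: GTACGTattagactatatcg
RPS9B end: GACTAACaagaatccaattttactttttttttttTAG
RPS9A start, chrXVI:404957-405457, plus strand: GTACGTcgttaatcttctcc
RPS9A end: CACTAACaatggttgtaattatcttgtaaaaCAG
RPS14B start, chrX:73797-74204, plus strand: GTACGTgaaaggggtgatat
RPS14B end: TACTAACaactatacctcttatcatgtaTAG
YRA1 start, chrIV:1236843-1237608, plus strand: GTATGTtaatacgtgaaatg
YRA1 end: GACTAACttttttttttttattaTAG
UBC12 start, chrXII:744154-744287, plus strand: GTACGTagatgcaactatat
UBC12 end: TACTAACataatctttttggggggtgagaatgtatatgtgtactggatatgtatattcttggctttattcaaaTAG
HAC1 start, chrVI:75840-76091, plus strand: ccgtgattacgatgaccagg
HAC1 end: cggcttgcttgtactgtccg

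Over the 270 protein-coding introns, the donor GTATGT stood at the start of 195 (72.2%), GTACGT at 26 (9.63%), GTAAGT at 13 (4.81%) and GTATGA at 8 (2.96%). The exact branch motif TACTAAC was found in 222 (82.2%), searched on the strand of the gene only. Of 44 genes with a single intron that lacked it, 38 held a motif that differed by 1 letter, as in RPS9A, RPS9B and YRA1 above. The last 3 bases were TAG in 136 introns and CAG in 119. In the 10 features that hold several introns, all these sites were read from the first intron only.

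The libraries held between 41.8 M and 83.9 M counts each (in units of M, mega), and 3 counts corresponded to 0.037 to 0.072 CPM (the usual count scaled to library size, here with TMM factors). DCP2 mRNA in dcp2-ideg was at 124 ± 29.3 CPM at T0 and 68.1 ± 13.2 CPM at T60 (SD, n = 4). LSM1 mRNA was lower in lsm1-ideg at T0, at 102 ± 2.03 CPM, than in wt, at 154 ± 6.25 CPM. A degron acts on the protein, so these mRNA levels do not measure the depletion. Replicate 4 of dcp2-ideg at T0, replicate 3 of wt at T60 and replicate 4 of dcp2-ideg at T60 correlated least with the rest of their groups, and main counts are also given without these 3 libraries.

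The introns were a small part of the poly(A) RNA. At wt T0 they held 0.347 ± 0.0446% of the counts (SD, n = 4), and 0.272 ± 0.0388% of the counts lay in ribosomal protein introns. The median protein-coding intron had 3.07 CPM at wt T0. There, 72 of the 270 had under 1 CPM and 4 had 100 CPM or more. HAC1, which encodes the transcription factor of the unfolded protein response, had the highest mean, 173 CPM. All 11 mitochondrial introns, 2 tRNA introns and that of HFM1, a meiotic helicase gene, had no count in any library. The filter on low counts kept 277 introns (260 protein-coding, 15 tRNA and both U3 introns), and the ratio test took 267 pairs (256, 9 and both).

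The intron to exon ratio is the count per base of the intron as a percent of the count per base of the exon feature. Over the 256 protein-coding pairs it had a median of 13.2% at wt T0, with quartiles of 5.33% and 31.9% and a range of 1.28% to 447%. In 59 pairs it was under 5% and in 44 it was 50% or more. The 5 lowest ratios belonged to ribosomal protein genes: RPL19B at 1.28 ± 0.150%, RPL31A at 1.55 ± 0.240%, RPL33A at 1.70 ± 0.345%, RPS14A at 1.82 ± 0.424% and RPS0A at 2.00 ± 0.253% (SD, n = 4). Over all 267 tested pairs, the median was 4.53% for the 89 ribosomal protein introns and 23.8% for the 178 others. These others include 9 tRNA and 2 U3 introns. Among the 5 highest were 2 tRNA introns, the 49-base intron of YJR112W-A at 351 ± 39.1%, and YHR218W and YBL111C, whose introns and exons have near-identical copies elsewhere and whose values are therefore uncertain.

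The ratio is not the share of molecules that are unspliced. Reads that overlap several features were counted in each: in each of 1308 pairs of nested features on a strand, the enclosing feature had at least as many counts as the enclosed one. Reads across the edge of an intron were not measured separately. Across the 256 introns, log2 of the ratio and log2 of the length had Pearson's r of -0.56. This is a correlation over genes of the same libraries, which are not independent replicates, and no p is given. Ribosomal protein introns are also mostly long, as the plot of ratio against length shows, so length and host group are mixed in it.

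**Figure D1:**
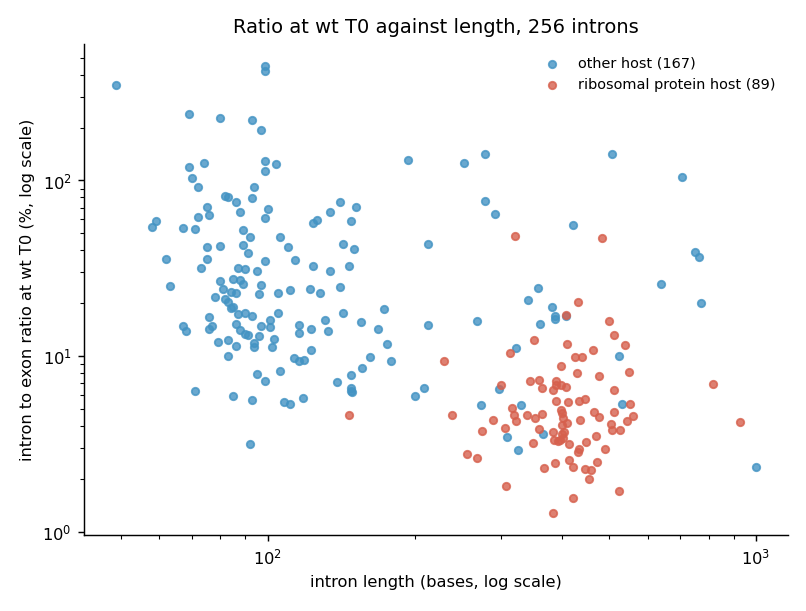
Mean intron to exon ratio at wt T0 (percent, log scale) against intron length (bases, log scale), 1 point for each of 256 protein-coding introns. Short introns have the higher ratios, up to 447%, and the ribosomal protein introns (red) lie among the long ones with a median ratio of 4.53%.

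In dcp2-ideg the level of introns relative to exons was higher after treatment, mainly in ribosomal protein genes. The median ratio of the ribosomal protein introns was 4.13, 4.19, 5.55 and 4.42% in the 4 dcp2-ideg libraries at T0 and 6.19, 8.03, 7.90 and 7.25% at T60. All T60 values lay above all T0 values and above all wt and lsm1-ideg libraries, of which the highest had 5.83%. In wt the mean went from 4.56 ± 0.491% to 4.49 ± 0.95% and in lsm1-ideg from 4.36 ± 0.736% to 4.60 ± 0.702% (SD, n = 4). For the other introns the dcp2-ideg mean was 21.5 ± 2.53% at T0 and 25.1 ± 3.00% at T60, and these ranges overlapped each other and those of wt.

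**Figure D2:**
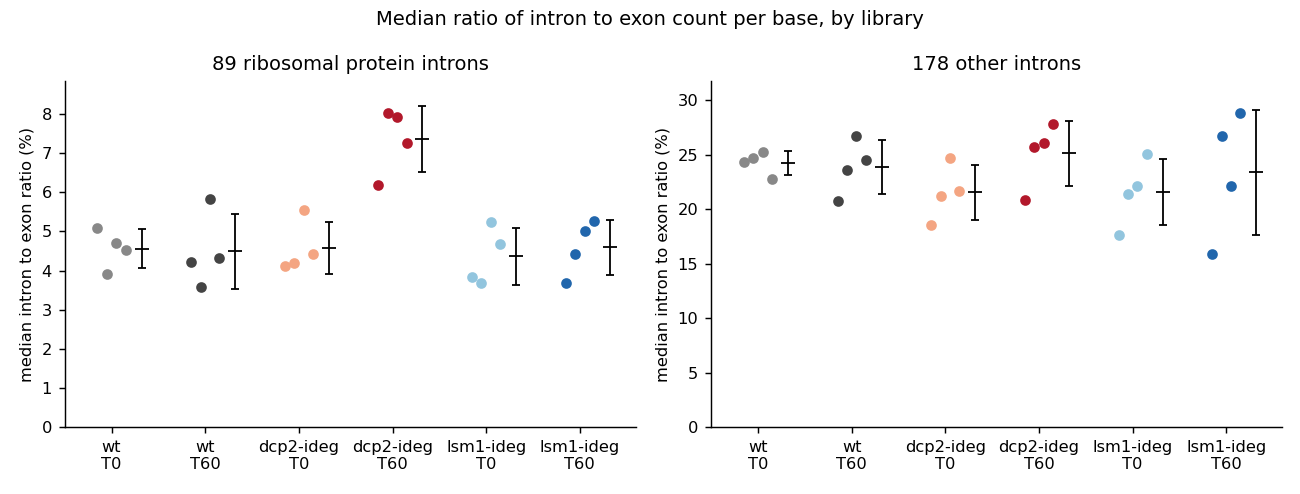
Median intron to exon ratio (percent) in each of 24 libraries, over 89 ribosomal protein introns (left) and 178 other introns (right); points are libraries, the bar beside them is the mean ± SD of 4. At left the 4 dcp2-ideg T60 libraries (6.19 to 8.03%) lie above all others, and at right the groups overlap.

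Taking the 267 tested pairs together, the summed intron counts were 3.40 ± 0.37% of the summed exon counts in dcp2-ideg at T0 and 6.57 ± 0.734% at T60. They were 3.25 ± 0.321% and 3.25 ± 0.424% in wt, and 3.13 ± 0.337% and 3.41 ± 0.434% in lsm1-ideg. The share of all counts that lay in any of the 343 introns was 0.416 ± 0.107% at T0 and 0.589 ± 0.126% at T60 in dcp2-ideg. These ranges overlapped because replicate 4 at T0 had 0.567%. Such summary values were not tested.

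Pair by pair, the ratio rose in dcp2-ideg beyond its change in wt for 48 of 267 pairs, which is 18% of the pairs tested, and fell for 0. These calls are adjusted p-values under 0.05 from edgeR's quasi-likelihood test with the exon count as offset, adjusted over all 267 pairs, which are the whole table for this measure. Of the 48, 43 were among the 89 ribosomal protein introns and 5 among the 178 others. The median log2 change was 0.72 for ribosomal protein pairs, 0.14 for the others and 0.36 for all. The count was 80 (77 higher, 3 lower, all 48 included) with replicate number as a block within each strain, an alternative chosen after seeing the data, and 70 (67 higher) with a block shared by the strains. It was 62 (60 higher, 2 lower) without the 3 least correlated libraries, 28 without replicate 1 of wt at T0 or replicate 3 of dcp2-ideg at T60, and 80 (79 higher, 1 lower) without replicate 3 of wt at T60. In 37 of the 267 pairs, 32 of them ribosomal protein introns, the 4 dcp2-ideg T60 libraries lay above all 20 other libraries, and in 1 they lay below all others.

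In lsm1-ideg 0 ratios were called beyond wt by the same edgeR test. At an unadjusted p under 0.05 there were 12 of 267, and limma on the log2 ratio also called 0. The median log2 change was 0.15. For the 48 pairs named above, the lsm1-ideg change beyond wt ran from -0.43 to 1.27 with a median of 0.29. Their dcp2-ideg change ran from 0.57 to 2.50 with a median of 1.01. The pairs were chosen by that dcp2-ideg change, so these values do not compare the strains fairly. Both use the same wt libraries, in which the 48 pairs had a median log2 change of -0.12 from T0 to T60. Tested directly between the degron strains, 17 pairs (6.37% of 267) rose more in dcp2-ideg and 0 less. All 17 were ribosomal protein introns, and all 17 were among the 48. Without replicate 3 of wt at T60 there were 27 calls (24 higher, 3 lower), with the replicate block shared by the strains 27, and with the block within each strain 40 (37 higher, 3 lower).

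In wt the treatment gave 0 called ratios of 267 (9 at an unadjusted p under 0.05; limma called 0). Within dcp2-ideg, T60 against T0 gave 84 higher and 7 lower ratios (34.1%). Before treatment, 1 ratio differed between dcp2-ideg and wt (0.375% of pairs). It belonged to YHL050C, was lower by 2.07 on the log2 scale (a log2 change of -2.07 ± 0.30, SE; edgeR adjusted p = 6.7e-05), and is uncertain because near-identical copies of this gene exist. Between lsm1-ideg and wt at T0 there were 0 calls, with 16 at an unadjusted p under 0.05 and 0 by limma.

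Of the 8 largest called rises of the ratio, 6 were in ribosomal protein genes; the others, UBC12 and ERV1, are described further on. RPL28 encodes a protein of the large ribosomal subunit, and its pre-mRNA is a classic substrate of nonsense-mediated decay. The RPL28 ratio was 15.3, 12.996, 12.4 and 11.95% in the wt libraries at T0 and 13.9, 13.2, 22.4 and 12.5% at T60. In dcp2-ideg it was 14.2, 14.2, 16.1 and 12.2% at T0 and 56.3, 76.1, 57.6 and 65.8% at T60. In lsm1-ideg it ran from 12.8% to 14.8% at T0 and from 13.4% to 16.2% at T60. The dcp2-ideg T60 libraries stood far above all others, and replicate 3 of wt at T60 was the highest of the rest. The log2 change of the RPL28 ratio in dcp2-ideg beyond wt was 1.94 ± 0.20 (SE; edgeR adjusted p = 3.4e-08).

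RPL22A and RPL22B are a pair of paralogues for a large-subunit protein, and the Rpl22 protein is known to inhibit splicing of RPL22B. The RPL22A ratio was 5.34, 5.89, 6.68 and 8.41% in dcp2-ideg at T0 and 23.9, 29.4, 26.5 and 30.4% at T60. Over wt and lsm1-ideg it stayed between 5.49% and 9.57%, so the T60 dcp2-ideg libraries did not overlap any other. Its log2 change beyond wt was 2.20 ± 0.20 (edgeR adjusted p = 7.2e-09). The RPL22B ratio was already high, with 43.9, 48.1, 46.9 and 49.6% in dcp2-ideg at T0, and it was 94.2, 99.3, 99.1 and 106% at T60. In the other groups it ran from 33.8% to 53.0%, again without overlap, and the log2 change was 1.24 ± 0.16 (edgeR adjusted p = 2.9e-06).

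RPS9A and RPS9B, paralogues for a small-subunit protein, both carry the donor GTACGT and a branch motif that differs from TACTAAC by its first letter. The RPS9B ratio was 4.36, 4.62, 5.47 and 5.76% in dcp2-ideg at T0 and 15.3, 17.4, 17.6 and 19.99% at T60. The RPS9A ratio was 10.2, 10.3, 13.7 and 10.7% at T0 and 34.4, 43.6, 46.8 and 39.1% at T60. Neither range was reached in another group, where RPS9B had at most 6.60% and RPS9A at most 18.96%. The log2 changes beyond wt were 1.92 ± 0.21 for RPS9B and 1.82 ± 0.25 for RPS9A (edgeR adjusted p = 1.2e-07 and 4.0e-06).

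RPL30, whose protein binds its own transcript and blocks splicing, had ratios of 9.12, 9.29, 12.2 and 10.2% in dcp2-ideg at T0 and 33.1, 45.5, 34.3 and 46.2% at T60. In wt at T60 replicate 3 stood apart at 23.99%, beside 9.94, 8.73 and 8.78% in the others. The log2 change was 1.51 ± 0.32 (edgeR adjusted p = 0.0012), and it was 2.00 without that library. RPS14B, whose protein also represses its own splicing, went from 12.97, 13.96, 15.7 and 18.9% in dcp2-ideg to 31.2, 46.4, 40.7 and 40.1%, a log2 change beyond wt of 1.34 ± 0.22 (edgeR adjusted p = 8.7e-05). Its highest value in any other library was 20.5%, and its intron overlaps 1 other feature on the strand.

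**Figure D3:**
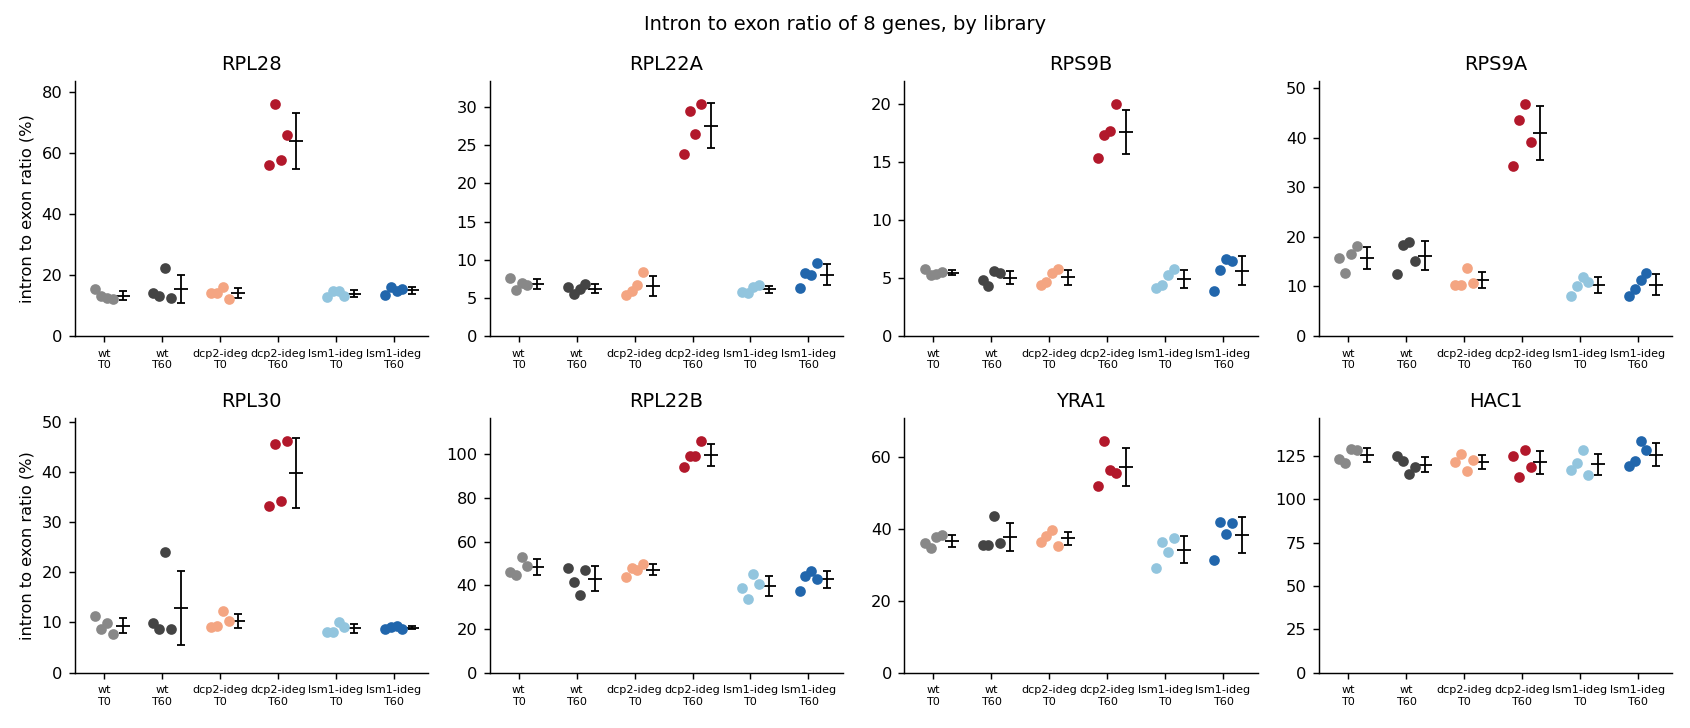
Intron to exon ratio (percent) of 8 genes in 24 libraries, with a separate linear axis for each gene; points are libraries and the bar is the mean ± SD of 4. In the panels of the ribosomal protein genes and YRA1 the dcp2-ideg T60 libraries lie above all others, and HAC1 is near 120% in every group.

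YRA1, which encodes an mRNA export factor that limits its own splicing, has a pre-mRNA known to be decapped in the cytoplasm with the help of Edc3. Its ratio was 36.3, 37.9, 39.7 and 35.3% in dcp2-ideg at T0 and 51.9, 64.4, 56.4 and 55.5% at T60, above the highest other library at 43.5%. The log2 change beyond wt was 0.57 ± 0.15 (edgeR adjusted p = 0.0093). Against the lsm1-ideg change it was 0.45 ± 0.15 and was not called (edgeR adjusted p = 0.071). DBP2, an RNA helicase gene with a long autoregulatory intron, had 2.73 ± 0.617% at T0 and 3.82 ± 0.561% at T60 in dcp2-ideg, and its log2 change of 0.33 ± 0.35 was not called.

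Literature lists frame these genes. Of 6 introns known to regulate their host gene (YRA1, DBP2, RPL30, RPS14B, RPS9A and RPL22B), 5 rose in ratio in dcp2-ideg beyond wt, with a median log2 change of 1.29 beside 0.36 over all pairs, of which 18% rose. Of 6 pre-mRNAs known as substrates of cytoplasmic decay (RPL28, RPS17B, REC107, YRA1, DBP2 and RPL22B), 4 rose, with a median of 0.91. The lists share members, and most of those called are ribosomal protein genes, of which 48.3% rose in all. In lsm1-ideg 0 of either list were called. RPS17B, a small-subunit protein gene, had 10.4 ± 5.77% in wt at T0, where replicate 4 had 18.9%, and its exons have a near-identical copy, so its log2 change of 1.54 ± 0.40 is uncertain. Its change in lsm1-ideg beyond wt was 1.09, not called. Between the degron strains the change of 0.45 was not called (edgeR adjusted p = 0.52).

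The 5 genes outside the ribosomal protein group were UBC12, ERV1, YSF3, YBR090C and YRA1; YSF3 and YBR090C are named here because of this count, after their values were seen. UBC12, the conjugating enzyme of the ubiquitin-like protein Rub1, had the largest log2 change of all, 2.50 ± 0.61 (edgeR adjusted p = 0.0055), on few reads. Its intron had 0.404, 0.451, 0.493 and 0.669 CPM in dcp2-ideg at T0 and 2.11, 1.65, 2.10 and 2.62 CPM at T60. No other library exceeded 0.909 CPM. In lsm1-ideg the UBC12 ratio changed by 1.27 beyond wt, which was not called. Compared directly between the degron strains, the change of 1.23 was not called either (edgeR adjusted p = 0.195). The ratio of ERV1, a sulfhydryl oxidase of the mitochondrial intermembrane space, changed by 0.91 in lsm1-ideg beyond wt and was not called. Directly between the degron strains it changed by 0.70, also not called (edgeR adjusted p = 0.43). In dcp2-ideg beyond wt it rose by 1.60 ± 0.50 (edgeR adjusted p = 0.027). This call was lost without replicate 1 or 3 of wt at T0, 1 or 4 of wt at T60, 2 of dcp2-ideg at T0, or 2 or 3 of dcp2-ideg at T60 (edgeR adjusted p of 0.0523 to 0.0629), and without the 3 least correlated libraries (0.0734). YSF3, a splicing factor subunit, rose by 1.48 ± 0.48 and the uncharacterised YBR090C, whose intron overlaps 2 other features, by 0.78 ± 0.19 (edgeR adjusted p = 0.033 and 0.0068). The values of these 2 with single libraries left out are not given here.

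A higher ratio can go with more intron counts, fewer exon counts or both. Of the 48 pairs whose ratio rose, the exon count fell in 42 and rose in 0, while the intron count rose in 8, fell in 3 and was not called in 37. In 6 pairs the intron rose and the exon fell. Over all 267 tested pairs the exon count fell in 140 (52.4%) and rose in 15 (5.62%). The intron count rose in 14 (5.24%) and fell in 32 (12%). Choosing pairs by a higher ratio itself favours fewer exon counts or more intron counts, and 43 of the 48 were ribosomal protein pairs. Exon counts of ribosomal protein genes fell in 88 of 89, with a median log2 change of -1.17, and their introns rose in 7 and fell in 18, with a median of -0.43. The background was high: 34.4% of 11776 features changed in this comparison, with a median of 0.073. All these count changes are under TMM factors. With total counts in their place the median over all features was 0.57. The exon calls under that scaling are not given here, so the split into intron and exon changes holds for TMM factors only. In bulk RNA, fewer cells with a transcript and less of it per cell cannot be told apart.

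**Figure D4:**
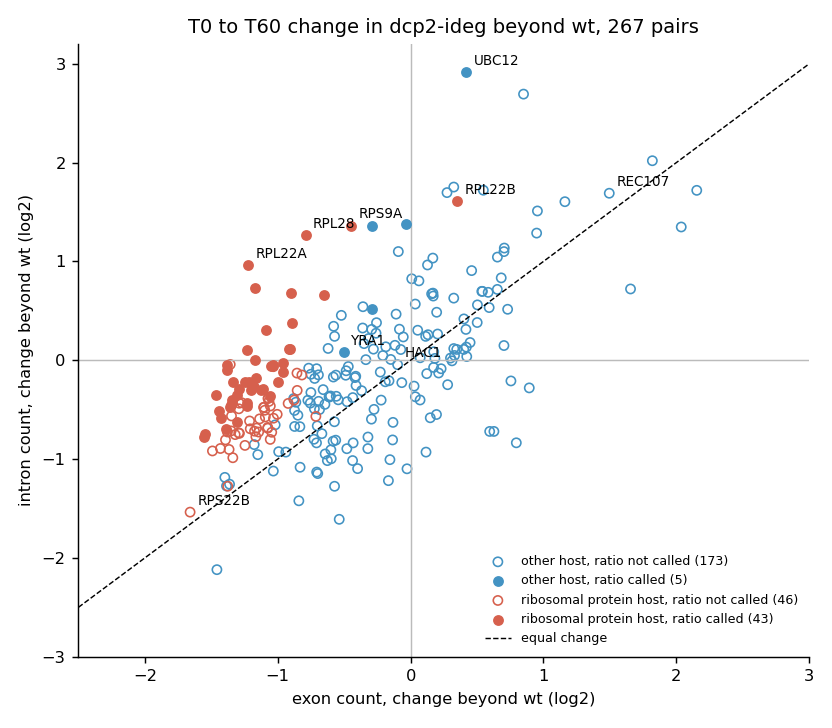
T60 against T0 log2 change, dcp2-ideg beyond wt, of the intron count (vertical) against that of the exon count (horizontal) for 267 pairs; filled points are pairs whose ratio was called. The 43 filled ribosomal protein points lie above the dashed line of equal change. Under TMM scaling all but RPL22B lie at falling exon counts and some, such as RPL28 and RPL22A, at rising intron counts.

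By count alone, 14 of 277 introns rose and 32 fell in dcp2-ideg beyond wt (16.6%, against 34.4% of all features, 18.5% higher and 15.9% lower), with a median log2 change of -0.26. This split depends on how libraries are scaled: with total counts in place of TMM factors 33 rose and 3 fell, which shifts the median change over all features from 0.07 to 0.57. Library scaling cancels in the ratio. Without the 3 least correlated libraries 22 introns rose and 21 fell. In lsm1-ideg beyond wt 0 of 277 were called (8 at an unadjusted p under 0.05; 0 with DESeq2; background 0.212%). Against the lsm1-ideg change, 12 rose and 28 fell in dcp2-ideg (14.4%, background 28.5%; 15.2% of all features higher and 13.3% lower), and with total counts 19 rose and 5 fell. In wt 0 were called with treatment (6 at an unadjusted p under 0.05; 0 with DESeq2). Within lsm1-ideg the intron of UBC5, a ubiquitin-conjugating enzyme gene named because it was the 1 call, rose by 1.96 ± 0.51 (edgeR adjusted p = 0.046; background 1.85%), and with 1 library left out at a time 0 to 2 introns were called. Within dcp2-ideg, T60 against T0, 24 rose and 73 fell (background 51.8%), and with total counts 66 rose and 6 fell. Before treatment YHL050C was the 1 call between dcp2-ideg and wt (background 0.824%), and lsm1-ideg and wt had 0 (11 at an unadjusted p under 0.05; 0 with DESeq2; background 0.348%).

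The introns that rose by count under TMM factors were led by RPL22B, RPL28 and RPS9A among the well-counted ones. The RPL28 intron had 174, 189, 185 and 352 CPM in dcp2-ideg at T0 and 462, 576, 517 and 760 CPM at T60, while its wt and lsm1-ideg libraries ran from 133 to 232 CPM. The 352 CPM are from replicate 4, one of the libraries that stand apart, and the T60 libraries lay above it. Its log2 change beyond wt was 1.27 ± 0.25 (edgeR adjusted p = 0.00028), and that of its exon feature was -0.79 ± 0.30 (edgeR adjusted p = 0.041).

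RPL22B was the exception among the ribosomal protein genes, since its exon count was not called (a log2 change of 0.35 ± 0.22). Its intron had 45.4, 41.8, 46.5 and 65.8 CPM in dcp2-ideg at T0 and 140, 179, 136 and 188 CPM at T60, a log2 change beyond wt of 1.61 ± 0.22 (edgeR adjusted p = 5.3e-06). The RPS9A intron had 18.8 ± 3.25 CPM in dcp2-ideg at T0 and 52.7 ± 6.30 CPM at T60, a log2 change of 1.36 ± 0.26 (edgeR adjusted p = 0.00019). RPL30 (0.68 ± 0.23, not called without replicate 2 or 4 of wt at T60 or replicate 4 of dcp2-ideg at T60), RPS14B (0.66 ± 0.21), RPL22A (0.96 ± 0.22) and RPS9B (0.73 ± 0.23) rose as well.

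Some introns rose together with their exons, so that the ratio did not change detectably. REC107, which encodes a meiotic recombination protein (Mer2) and needs the meiotic splicing factor Mer1, had an intron of 3.45, 2.10, 3.66 and 1.99 CPM in dcp2-ideg at T0 and 10.1, 8.10, 7.97 and 5.99 CPM at T60. No other library exceeded 4.52 CPM. The REC107 intron changed by 1.69 ± 0.41 and its exon feature by 1.50 ± 0.25 beyond wt (edgeR adjusted p = 0.0021 and 4.8e-05). Its ratio was 228 ± 35.2% and 266 ± 14.1% in dcp2-ideg at T0 and T60, not called at a log2 change of 0.15 ± 0.33. Of the 13 meiotic introns, 3 had enough counts for the ratio test and 0 were called. The intron of IWR1, an RNA polymerase import factor gene, rose by 1.60 ± 0.52 with its exons at 1.16 ± 0.26, a call lost without replicate 2 of wt at T0 (edgeR adjusted p = 0.0516). BUD25, a weakly counted gene, differed from these: its intron rose by 2.69 ± 0.74, while its exon change of 0.85 ± 0.60 was not called. Its ratio had a large log2 change of 1.82 that was not called (edgeR adjusted p = 0.062).

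**Figure D5:**
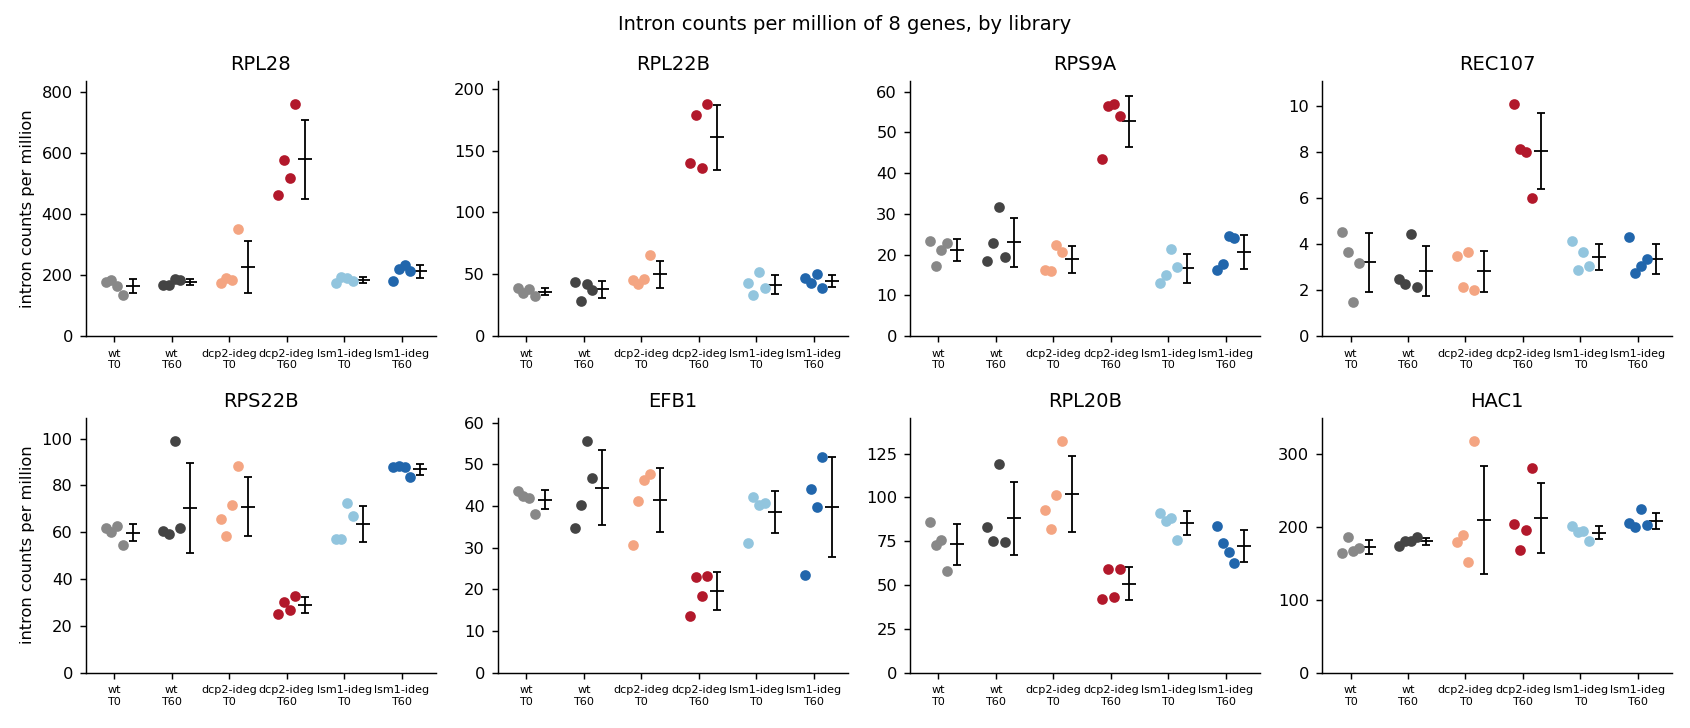
Intron CPM of 8 genes in 24 libraries, with a separate linear axis for each gene; points are libraries and the bar is the mean ± SD of 4. In dcp2-ideg at T60 the introns of RPL28, RPL22B, RPS9A and REC107 are high and those of RPS22B, EFB1 and RPL20B low under TMM scaling.

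Introns that hold a snoRNA were mostly lower. Their counts fell in 6 of 8 in dcp2-ideg beyond wt and rose in 0, while exon counts fell in all 8 and the ratio was called in 1, RPL7B. Over all 267 pairs, intron counts fell in 32 and exon counts in 140 (52.4%). The RPS22B intron had 65.6, 58.2, 71.5 and 88.1 CPM in dcp2-ideg at T0 and 25.2, 30.3, 26.6 and 32.7 CPM at T60, below every other library. Its log2 change was -1.54 ± 0.21 (edgeR adjusted p = 3.0e-06), beside a log2 change of -1.66 ± 0.26 for its exons. EFB1 and TEF4, which encode translation elongation factors, changed by -1.18 ± 0.28 and -1.25 ± 0.34. ASC1, IMD4 and NOG2 also fell, and with total count scaling RPS22B remained called while EFB1, TEF4, ASC1, IMD4 and NOG2 did not. Any reads of the snoRNA would be counted in these introns too, if reads are counted in each feature they overlap.

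RPL7B, a large-subunit protein gene with 2 introns in its feature, had a ratio of 6.28 ± 1.18% at T0 and 16.2 ± 2.60% at T60 in dcp2-ideg, a log2 change of 1.41 ± 0.28 beyond wt (edgeR adjusted p = 0.00061), and its exons have a near-identical copy. Outside the snoRNA hosts and snR17b, the called fall of the RPL20B intron was exceeded by that of HMRA1, which had few counts and a log2 change of -1.42, or -0.93 and not called without replicate 4 of dcp2-ideg at T0, and -0.89 and not called with total count scaling. RPL20B was at 102 ± 21.6 CPM at T0 and 50.8 ± 9.59 CPM at T60 in dcp2-ideg, with a log2 change beyond wt of -1.27 ± 0.23 (edgeR adjusted p = 0.00014). The intron of snR17b fell by 2.12 on the log2 scale (-2.12 ± 0.50, edgeR adjusted p = 0.0017), and the ratio of snR17b was 72.0 ± 7.65% at T0 and 39.0 ± 9.17% at T60 in dcp2-ideg, not called beyond wt (edgeR adjusted p = 0.075). Of the 15 tRNA introns tested 1 rose, that of tW(CCA)P (log2 change 2.02), which has near-identical copies. Its call was lost without any 1 of 7 libraries (replicates 3 and 4 of wt at T0, replicates 1, 2 and 4 of wt at T60, replicate 2 of dcp2-ideg at T0 and replicate 3 at T60), and the change ran from 1.70 to 2.82 over all libraries left out. U3 and tRNA precursors are not mRNA, and the RNA was selected on poly-T beads.

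HAC1, whose intron is removed outside the nucleus by Ire1 and tRNA ligase during the unfolded protein response, was listed for comparison, since it is stored unspliced in unstressed cells. Its ratio was 123, 121, 129 and 128% in wt at T0, and 125, 113, 128 and 119% in dcp2-ideg at T60. Over all 24 libraries it ran from 113% to 134%, all groups overlapped, and its log2 change beyond wt was 0.06 ± 0.10 in dcp2-ideg and 0.13 ± 0.10 in lsm1-ideg, neither called. LSM2 and LSM7, subunits of Lsm rings with introns of their own, had ratios of 22.7 ± 4.27% and 13.01 ± 0.862% in wt at T0, and neither was called in dcp2-ideg (0.16 ± 0.31 and -0.03 ± 0.49). NMD2, a nonsense-mediated decay factor gene, had too few intron counts for the ratio test.

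The ratio was also split by splice sites, as a description made with the results known. Where a feature holds several introns, the sites are those of the first. Among ribosomal protein introns with both GTATGT and an exact TACTAAC, 25 of 62 rose in ratio in dcp2-ideg beyond wt, with a median log2 change of 0.67. Among those with another donor or no exact TACTAAC, 18 of 27 rose, with a median of 1.01. Over all tested protein-coding introns, 32 of 188 with GTATGT rose (17%), 9 of 25 with GTACGT (36%), 4 of 8 with GTATGA (50%), and 0 of 11 with GTAAGT. The length split was larger: 44 of 131 introns of 150 bases or more rose and 4 of 125 shorter ones, with medians of 0.57 and 0.16. Host group, length and donor overlap in these introns, and their parts were not tested.

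Genes of the splicing and decay machinery were followed by their own feature counts. Of 81 genes for the spliceosome and its assembly, 4 rose (4.94%) and 14 fell (17.3%) in dcp2-ideg beyond wt, beside 18.5% and 15.9% of all features, with a median log2 change of -0.15 beside 0.07 for all features. MSL1 (0.80 ± 0.19), a U2 protein, PRP4 (0.67 ± 0.16), a U4/U6 protein, CWC23 (0.67 ± 0.26) and LUC7 (0.60 ± 0.21), a U1 protein, rose. SNU13, shared by the U4/U6 particle and box C/D snoRNPs, changed by -1.10 ± 0.19, SPP382 by -0.75 ± 0.24, the disassembly helicase gene PRP43 by -0.74 ± 0.19 and HSH155 by -0.59 ± 0.17. Of 30 genes for pre-mRNA and mRNA decay, 2 rose (PML39 and EDC2) and 10 fell (33.3%), with a median of -0.35. With total count scaling, which moved the median of all features to 0.57, 26 splicing genes rose and 1 (SNU13) fell, and 5 decay genes rose and 1 (MTR4) fell, so the falls of the others depend on the scaling. MTR4, the nuclear exosome helicase, changed by -1.06 ± 0.12 and DCP1, the partner of Dcp2, by -0.92 ± 0.21. In lsm1-ideg beyond wt 0 of either list were called.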

How the data were processed

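Poly(A) RNA was sequenced with strand marking (dUTP) in 24 libraries, and the deposited table holds raw counts per feature, made with STAR, featureCounts and build sacCer3, per the submitters' processing notes; their versions, the annotation and the strand option are not given in the sources used here. All sample columns were matched by name. The members and gene lists were chosen with earlier results of these data known. Here, edgeR 4.0.16 (R 4.3.3) was fitted to all 12289 features with TMM factors and filterByExpr (11776 tested), 1 mean for each of 6 groups (18 residual df) and 8 comparisons. Two-sided p-values were adjusted with the Benjamini-Hochberg procedure, over all features for counts and over all pairs for the ratio. The SE was taken as |log2 change| over the root of F. For the ratio, intron counts were fitted with the log of the exon count plus 0.5 as offset, over pairs with mean intron and exon counts of at least 10. In simulated data with 2-fold changes, the ratio test recovered 30 of 60 changed pairs and called 2 unchanged ones, and the count test recovered 69 of 200 and called 5. The simulation changed equal numbers up and down, and for counts only 200 of 11724 features. In the data 34.4% of features were called in dcp2-ideg beyond wt, so the simulated rates may not hold there. Ratios and CPM are means ± SD over 4 libraries. Near-identical copies (95% identity or more along 50% or more of the feature; blastn 2.17.0) were marked in 14 introns and 37 exon features of protein-coding genes, and in most tRNA features, and 10 exon features covered bases of their own intron. Genome coordinates are sacCer3, the same as R64 for all 270 protein-coding introns. Genes named are those of the literature lists, up to 8 of the largest called ratio changes in each main comparison and direction, up to 6 of the largest count changes, the 5 highest and lowest wt T0 ratios, up to 4 list members per direction, and those said to be chosen later. Alternatives were limma 3.58.1, DESeq2 1.42.0, total count scaling, other filters, a replicate block and leaving out libraries. The labels do not say that a replicate number marks a shared culture or day. Deviations from the group means of same-numbered T0 and T60 libraries correlated over 0.1 in 4 of 4 pairs of dcp2-ideg (0.152 to 0.632), 3 of 4 of lsm1-ideg and 0 of 4 of wt. The fit was made without a block, and counts with a block are given beside it.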

Additional observations from a re-analysis of the deposited data

Results flagged for a closer look

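By edgeR tests of the difference itself, the ratio in the dcp2-ideg strain changed differently from wt in 48 pairs and from lsm1-ideg in 17, and intron counts did so in 46 and 40. Beyond wt the log2 differences of the ratio were 2.50 for UBC12, 2.20 for RPL22A, 1.94 for RPL28, 1.92 for RPS9B, 1.82 for RPS9A, 1.60 for ERV1, 1.54 for RPS17B and 1.51 for RPL30. Against lsm1-ideg they were 2.07 for RPL28, 1.94 for RPL30, 1.85 for RPS9A, 1.67 for RPL22A, 1.60 for RPS9B, 1.54 for RPS13, 1.36 for RPS14B and 1.17 for RPL35B. The exon feature has a near-identical copy in 8 of the 48 pairs and 4 of the 17, RPL35B among both. Without pairs that have such copies, ratio calls were 44 in dcp2-ideg beyond wt (40 of the 48) and 13 against lsm1-ideg.

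A single library stood far from the other 3 of its group, by Dixon's criterion, in 10 of 138 sets of 4 values screened, and chance alone gives about 1 in 20. Replicate 3 of wt at T60 was the library in 6 of them. It had the high ratio for RPL30 (23.99%), YRA1 (43.5%), RPL28 (22.4%), REC107 (397%), RPL7B (7.47%) and RPS13 (21.6%). The others were ERV1 in replicate 2 of wt at T60 (27.4%) and replicate 1 of dcp2-ideg at T60 (15.6%), RPS9A in replicate 3 of dcp2-ideg at T0 (13.7%), and REC107 in replicate 2 of dcp2-ideg at T0 (175%).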

How the results depend on the processing

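No called value of a named intron changed sign under the alternatives run. In dcp2-ideg beyond wt, calls of the ratio ran from 28 to 80 when 1 library was left out, and were 53 by limma (52 higher, 48 shared), 70 with the replicate block (67 higher) and 53 at a mean intron count of at least 100. Between dcp2-ideg and lsm1-ideg the ratio calls ran from 15 to 27 with 1 library left out and were 27 with the replicate block. By count, calls in dcp2-ideg beyond wt ran from 35 to 57, those against lsm1-ideg from 29 to 58 (24 with total count scaling, 62 with the replicate block), those within dcp2-ideg from 66 to 102 (ratio 65 to 102), and those within lsm1-ideg from 0 to 2, with 2 by DESeq2 and 4 without the 3 least correlated libraries, an alternative chosen after seeing the data, as were those on copies and protein-coding hosts. Without these libraries 1 intron count differed between lsm1-ideg and wt at T0, with the block 1 ratio did, and without near-identical copies 0 ratios differed between dcp2-ideg and wt at T0. The median ratio of a group fell at a mean intron count of at least 100: 7.14% at T0 and 6.97% at T60 in wt, 6.89% and 10.4% in dcp2-ideg, 6.55% and 7.21% in lsm1-ideg, beside 13.4%, 12.2%, 12.3%, 14.2%, 10.98% and 11.8%. With the replicate block within each strain, chosen after seeing the data, calls by ratio were 80 in dcp2-ideg beyond wt and 40 against lsm1-ideg, and calls by count 82 (24 higher), 83 (15 higher) and, within lsm1-ideg, 3. That block leaves no test between strains at T0. Over all groups 15 of 60 correlations of same-numbered libraries exceeded 0.1 (lowest -0.313, highest 0.632), and 20 of 24 libraries correlated best with their own number. The causes of these changes were not tested. Depth limits the weakly counted introns: 10 protein-coding introns were not testable by count.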
